A study of Homo sapiens with 9 samples.

Results

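The 60 genes described here encode proteins of mitosis and of the spindle checkpoint: the kinases and cyclins that start mitosis, the checkpoint and kinetochore proteins, the proteins that hold and compact chromosomes, and those of the spindle and of cytokinesis. They were chosen by name from the 26485 genes listed in each of the deposited tables. The kinesin motors named KIF or KIFC were left out, while the kinetochore motor CENPE was kept. Of the 60 genes, 58 were listed under their own symbol, and SGO1 and SGO2 under the older symbols SGOL1 and SGOL2. The study asked what loss of ASAH1, the lysosomal acid ceramidase, does to gene expression in MDA-MB-231 cells, a triple-negative breast cancer cell line. RNA was sequenced from cells of this line that stably carried a nonspecific (NS) short hairpin RNA (shRNA), ASAH1 shRNA #1 or ASAH1 shRNA #2, with 3 libraries a group and 9 in all, which were described as biological replicates. All cells were the same line and all carried an shRNA, and no uninfected cells were analysed here. What the hairpins do beyond lowering ASAH1 was not tested. The error used throughout comes from the spread between the libraries of a group, moderated by each fit with that of other genes. How far apart the cultures of these libraries were is not given in the sources used here.

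Dividing cells switch on most of these genes together late in the cell cycle. The cyclin-dependent kinase CDK1 and its cyclins start mitosis, kinetochores join chromosomes to spindle microtubules, and the spindle checkpoint holds back the anaphase-promoting complex (APC/C) until every chromosome is attached. Their promoters often carry CCAAT boxes, bound by NF-Y, and a cell cycle genes homology region (CHR) element, through which the DREAM complex represses them in resting cells and MYBL2 and FOXM1 activate them in dividing cells. In tumors these transcripts are widely used as a readout of proliferation. In bulk RNA, fewer cells in mitosis and less RNA of these genes per cell cannot be told apart.

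The reads counted on genes numbered 30989598 to 34867548 per library with NS shRNA, 23806003 to 39791698 with shRNA #1 and 35653318 to 49659106 with shRNA #2. The values are normalized counts, that is, reads divided by a size factor per library that evens out sequencing depth. The size factors were set within each table, so the same NS shRNA libraries have other values beside shRNA #1 than beside shRNA #2. ASAH1 itself fell with shRNA #1 (log2 fold change -1.76 ± 0.050 SE, limma adjusted p = 9.49e-09) and with shRNA #2 (log2 fold change -2.63 ± 0.057 SE, limma adjusted p = 5.42e-10), and was lower with shRNA #2 than with shRNA #1 (log2 ratio -0.89 ± 0.051 SE, edgeR adjusted p = 6.98e-08). Of the markers of the line, vimentin (VIM), a mesenchymal filament protein, stood at 2080 to 2130 RPM (reads scaled to a library total of 1000000) with NS shRNA, 1720 to 1800 with shRNA #1 and 1170 to 1220 with shRNA #2. The membrane scaffold gene CAV1 was at 1130 to 1260, 733 to 785 and 788 to 890 RPM, and the growth factor receptor gene EGFR at 86.1 to 132, 202 to 272 and 192 to 263 RPM, in the same order. The estrogen and progesterone receptor genes ESR1 and PGR and the luminal factor FOXA1 were at or under 0.153 RPM in every library, although ERBB2, EPCAM and GATA3 were at 61.2 to 105, 21.3 to 35.7 and 15.6 to 25 RPM. Of the markers of other cell types, PTPRC, CD3E and ALB were at or under 0.258 RPM in every library, whereas the macrophage marker CD68 was at 63.3 to 78.9 RPM with NS shRNA, 74.7 to 101 with shRNA #1 and 22.4 to 29.1 with shRNA #2. COL1A1 was at 19.6 to 23.4, 22.9 to 26.9 and 14.6 to 18.2 RPM and PECAM1 at 2.88 to 3.10, 1.5 to 2.52 and 1.09 to 1.81 RPM, in the same order. The summed level of these 6 markers was 88.2 to 102 RPM with NS shRNA, 103 to 127 with shRNA #1 and 41.6 to 45.6 with shRNA #2, and its part in the results below was not tested.

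The promoters of the members that moved most are shown first, because CCAAT boxes and CHR elements are what many of these genes share beyond their function. RefSeq (GRCh38.p14) gave a promoter, here 250 bases before to 50 bases after the first listed start, for 51 of the 60 members. It gave none for BIRC5, FOXM1, PBK, AURKA, RACGAP1, TPX2, BUB3, TTK and UBE2C. The first 3 below had the lowest, and the last 3 the highest, mean log2 fold change over both hairpins among the members with a promoter, and capitals mark CCAAT boxes (CCAAT, or ATTGG on the other strand) and CHR elements (TTTGAA or TTCGAA, or TTCAAA on the other strand).
SPC24, chr19:11155733-11156032, minus strand: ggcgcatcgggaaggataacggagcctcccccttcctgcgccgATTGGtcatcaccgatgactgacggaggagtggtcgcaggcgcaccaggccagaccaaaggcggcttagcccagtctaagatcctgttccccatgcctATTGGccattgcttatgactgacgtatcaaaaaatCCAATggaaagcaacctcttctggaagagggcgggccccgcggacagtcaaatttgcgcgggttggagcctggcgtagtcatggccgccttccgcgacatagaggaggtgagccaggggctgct
NCAPD2, chr12:6493852-6494151, plus strand: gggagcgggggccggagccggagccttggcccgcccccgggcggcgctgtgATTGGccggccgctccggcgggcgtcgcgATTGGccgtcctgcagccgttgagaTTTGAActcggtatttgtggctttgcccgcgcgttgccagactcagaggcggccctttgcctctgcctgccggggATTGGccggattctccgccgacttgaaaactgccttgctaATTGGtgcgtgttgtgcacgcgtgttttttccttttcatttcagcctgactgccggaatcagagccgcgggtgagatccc
CCNB2, chr15:59104896-59105195, plus strand: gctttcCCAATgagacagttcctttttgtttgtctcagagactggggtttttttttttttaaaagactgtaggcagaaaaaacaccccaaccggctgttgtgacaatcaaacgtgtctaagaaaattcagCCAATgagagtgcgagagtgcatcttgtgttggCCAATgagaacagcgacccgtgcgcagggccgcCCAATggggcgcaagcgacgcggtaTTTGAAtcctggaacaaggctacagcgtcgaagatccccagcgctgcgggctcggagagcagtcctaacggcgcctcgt
MYBL2, chr20:43666864-43667163, plus strand: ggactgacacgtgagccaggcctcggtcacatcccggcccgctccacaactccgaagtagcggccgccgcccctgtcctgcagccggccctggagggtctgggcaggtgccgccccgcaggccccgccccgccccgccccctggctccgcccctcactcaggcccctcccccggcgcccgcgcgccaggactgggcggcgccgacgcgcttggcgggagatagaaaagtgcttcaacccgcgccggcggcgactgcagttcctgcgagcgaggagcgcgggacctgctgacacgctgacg
SKA3, chr13:21176503-21176802, minus strand: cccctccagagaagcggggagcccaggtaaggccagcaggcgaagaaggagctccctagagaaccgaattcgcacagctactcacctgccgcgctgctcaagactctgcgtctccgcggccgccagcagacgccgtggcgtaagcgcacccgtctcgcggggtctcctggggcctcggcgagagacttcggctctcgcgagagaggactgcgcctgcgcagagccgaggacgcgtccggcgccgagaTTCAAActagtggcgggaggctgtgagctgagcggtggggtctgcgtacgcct
CDC20, chr1:43358731-43359030, plus strand: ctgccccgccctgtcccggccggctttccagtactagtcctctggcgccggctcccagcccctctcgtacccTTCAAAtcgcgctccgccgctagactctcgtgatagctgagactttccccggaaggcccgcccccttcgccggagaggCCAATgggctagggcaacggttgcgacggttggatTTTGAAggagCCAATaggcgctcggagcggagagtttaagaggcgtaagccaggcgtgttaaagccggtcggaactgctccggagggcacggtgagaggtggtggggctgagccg
The 3 promoters of the members that fell most held 3 (SPC24), 4 (NCAPD2) and 4 (CCNB2) CCAAT boxes, MYBL2 and SKA3 held 0 and CDC20 held 2. A CHR element was found once in NCAPD2, CCNB2 and SKA3 and 2 times in CDC20. Over the members, 37 of 51 promoters (72.5%) held a CHR element, against 16.6% of the promoters of 27305 genes taken in the same way, and 33 (64.7%) held a CCAAT box, against 35.7%. Both motifs stood together in 49.0% of the member promoters and in 6.58% of all promoters. Among the 26 member promoters of genes that fell with both hairpins, 17 (65.4%) held a CHR element and 20 (76.9%) a CCAAT box, and among the other 25 the numbers were 20 (80.0%) and 13 (52.0%). These are matches of letters in a fixed window and were not tested.

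Most mitosis genes were lower in cells with either ASAH1 shRNA, and a minority were higher. With shRNA #1, 38 of the 60 members were lower and 12 higher than with NS shRNA at a limma adjusted p below 0.05, and 10 did not pass. With shRNA #2, 42 were lower, 6 higher and 12 did not pass. All 60 passed the filter of a mean normalized count of at least 10. The shares of all genes, here and below, were not matched to the members for level. How far level affects how often genes pass was not tested. Across all genes tested, 33.3% were called lower and 32.8% higher with shRNA #1, and 33.4% lower and 33.5% higher with shRNA #2, so the members were called lower more often (63.3% and 70.0%) and higher less often (20.0% and 10.0%) than genes in general, a description without a test of the list. The median log2 fold change over the members was -0.247 with shRNA #1, where the median of all genes tested was 0.001, and -0.337 with shRNA #2, where it was 0.013.

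With the added limit of a change of more than 1.5-fold, 7 members (11.7%) were lower and 1 (1.67%) higher with shRNA #1, where 14.0% of all genes tested were lower and 15.0% higher. With shRNA #2, 19 members (31.7%) were lower and 0 higher at this limit, against 17.6% and 14.8% of all genes. The share of members lower by this limit was thus below that of all genes with shRNA #1 and above it with shRNA #2. VIM and CD68 were also lower with shRNA #2 than in the other groups, and their part in the members' change was not tested. The range of log2 fold change over the members was -0.816 (SPC24) to 0.671 (SKA3) with shRNA #1 and -1.186 (MKI67) to 0.486 (CDC20) with shRNA #2.

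The 3 libraries of each hairpin gave like results. The median over the members of the difference from the NS shRNA mean, on the log2 scale, was -0.251, -0.206 and -0.269 in the shRNA #1 libraries and -0.315, -0.300 and -0.346 in the shRNA #2 libraries, while the NS shRNA libraries lay between -0.0372 and 0.0363. All shRNA libraries were thus below all NS shRNA libraries. Together the members took 0.853% to 0.898% of the reads on genes with NS shRNA, 0.774% to 0.787% with shRNA #1 and 0.651% to 0.678% with shRNA #2, and the 3 ranges did not overlap. These shares are not scaled by size factor, so changes in the reads of other genes also move them. The summed normalized counts were 276696 to 289000 with NS shRNA and 247627 to 250762 with shRNA #1. Beside shRNA #2 they were 298567 to 311600 with NS shRNA and 250717 to 257695 with the hairpin.

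**Figure D1:**
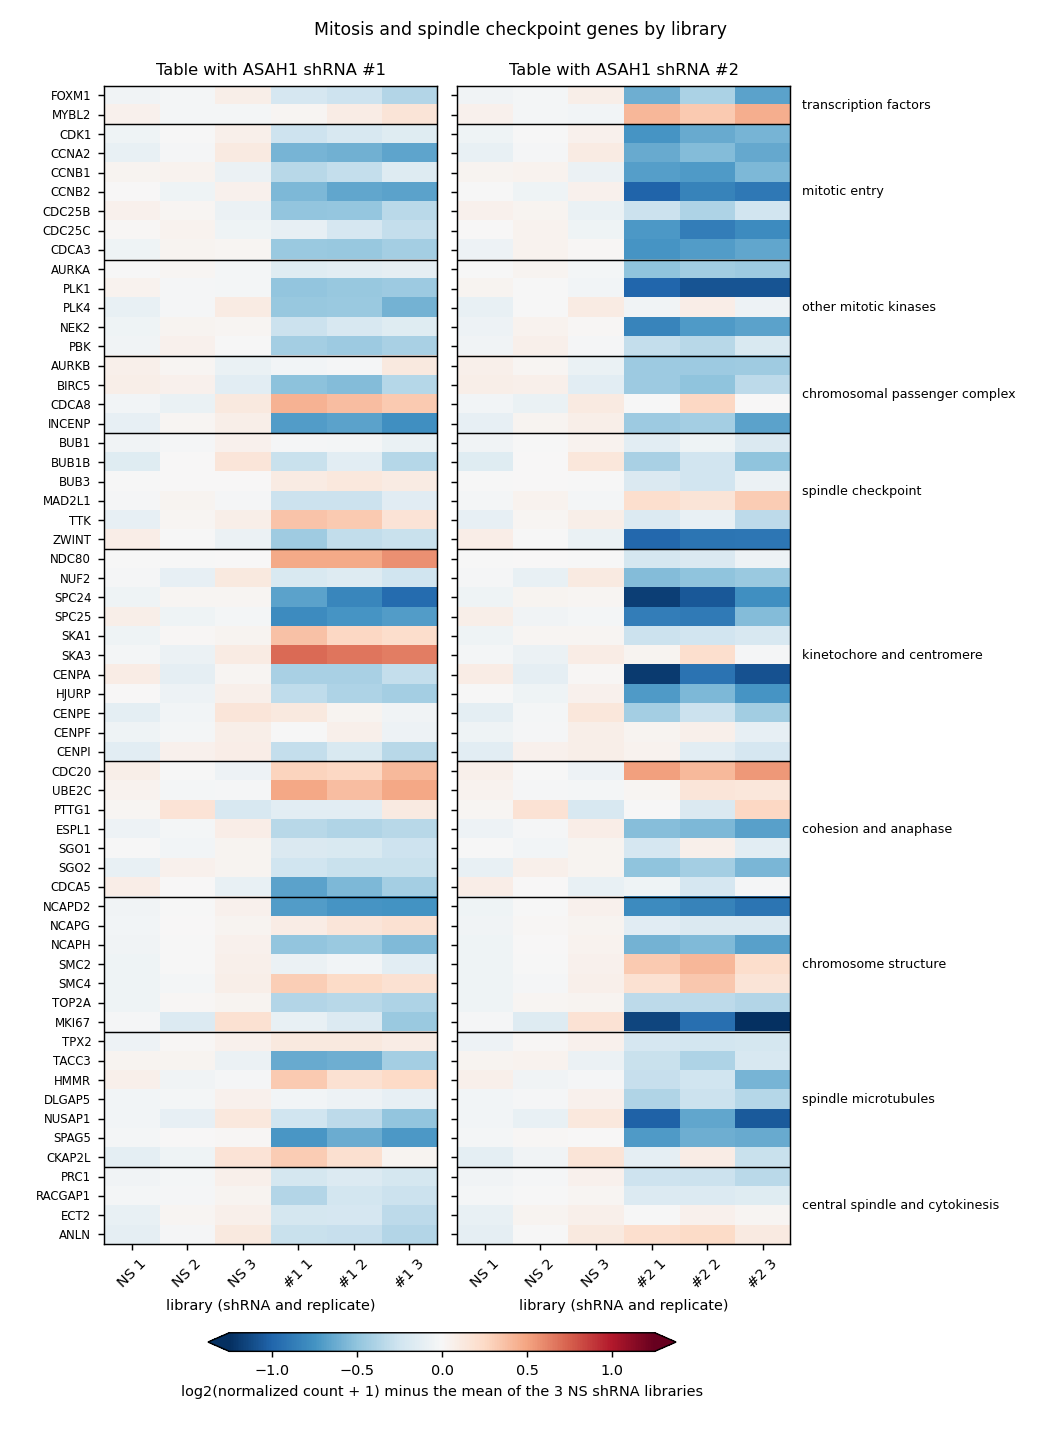
Heat map of the 60 members (rows, grouped by role) in each library (columns), as log2(normalized count + 1) minus the mean of the 3 NS shRNA libraries of the same table; blue is lower and red higher. The mitotic entry genes are blue in all shRNA libraries, whereas rows of the checkpoint and kinetochore groups, such as NDC80 and TTK, turn from red with shRNA #1 to blue with shRNA #2.

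Set against each other, the hairpins left 31 members lower with both (51.7%, against 20.5% of the 14075 genes tested in both tables) and 2, CDC20 and SMC4, higher with both (3.33%, against 20.0%). A further 9 members were called in opposite directions (15.0%, against 7.96% of genes), 14 were called with a single hairpin, and BUB1, CENPF, PTTG1 and CKAP2L with neither. Both comparisons use the same NS shRNA libraries, so they are not independent of each other. The shares of genes were again not matched to the members for level.

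Among the transcription factors, FOXM1, a forkhead activator of late cell cycle genes, fell with both hairpins and MYBL2, the MuvB partner also called B-MYB, did not. FOXM1 stood at 6305, 6374 and 6842 normalized counts with NS shRNA and at 5617, 5425 and 5034 with shRNA #1 (log2 fold change -0.28 ± 0.056 SE, limma adjusted p = 0.0016). In the other table it stood at 6803, 6919 and 7377 with NS shRNA and at 4593, 5332 and 4410.4 with shRNA #2 (log2 fold change -0.56 ± 0.074 SE, limma adjusted p = 6.39e-05), so that in both tables the groups did not overlap. MYBL2 was at 3229, 3042 and 3043 with NS shRNA and 3165, 3299 and 3472 with shRNA #1, groups that overlapped (log2 fold change 0.093 ± 0.053 SE, limma adjusted p = 0.15). MYBL2 rose with shRNA #2, to 4468, 4209 and 4599, from 3484, 3302 and 3281 with NS shRNA (log2 fold change 0.40 ± 0.057 SE, limma adjusted p = 0.000123), and every shRNA #2 library was above every NS shRNA library.

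All 7 members grouped under mitotic entry fell with both hairpins, against 20.5% of all genes tested with both. Of the 10 roles, only this one had every member called lower in both comparisons. The pattern does not extend to all genes of mitotic entry. Of 12 further regulators of entry, counted as a separate list, 4 (33.3%) were lower with both hairpins. Another 2 (16.7%) were higher with both, against 20.0% of all genes, and 2 (16.7%) had opposite calls, against 7.96%. The median log2 fold change of the 7 genes was -0.438 for shRNA #1 and -0.652 for shRNA #2. CDK1, the kinase that drives entry into mitosis, stood at 5105, 5283 and 5539.6 with NS shRNA and at 4439, 4609.8 and 4789 with shRNA #1 (log2 fold change -0.20 ± 0.051 SE, limma adjusted p = 0.00587), or 86.9% of the NS shRNA mean. The shRNA #2 libraries held 3448, 3712 and 3845, against 5509, 5734 and 5973 with NS shRNA, or 63.9% (log2 fold change -0.65 ± 0.060 SE, limma adjusted p = 5.46e-06). Percentages of the NS shRNA mean, here and below, are fold changes turned back from the log2 scale, and so compare geometric means. CCNB1, its B-type cyclin partner, went from 9266, 9319 and 8608 with NS shRNA to 7123, 7381 and 8123 with shRNA #1 (log2 fold change -0.27 ± 0.059 SE, limma adjusted p = 0.00296). The other hairpin took it from 9999, 10116 and 9281 to 6092, 5982 and 6643 (log2 fold change -0.65 ± 0.060 SE, limma adjusted p = 4.94e-06). In neither table did the CDK1 or CCNB1 groups overlap.

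The second B-type cyclin, CCNB2, fell further, by 0.63 ± 0.055 on the log2 scale with shRNA #1 (to 64.8% of the NS shRNA mean) and by 0.91 ± 0.065 with shRNA #2 (to 53.4%). CCNA2, the A-type cyclin of S phase and early mitosis, fell to 65.2% and 65.8% of the NS shRNA mean. The phosphatases that activate CDK1 also fell: on the log2 scale CDC25B changed by -0.44 ± 0.057 with shRNA #1 and -0.30 ± 0.060 with shRNA #2, and CDC25C by -0.21 ± 0.070 with shRNA #1 and -0.79 ± 0.075 with shRNA #2. CDCA3, an adaptor that helps degrade the CDK1 inhibitor WEE1, changed by -0.45 ± 0.056 with shRNA #1 and -0.70 ± 0.066 with shRNA #2. The call of CDC25C with shRNA #1 was lost when single libraries were left out, with a log2 fold change of -0.200 without NS shRNA replicate 1, -0.184 without NS shRNA replicate 2, and -0.204 and -0.157 without shRNA #1 replicates 2 and 3.

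The 5 members grouped as other mitotic kinases fell too, with 1 exception in 1 table. The kinases AURKB, BUB1 and TTK are grouped under other roles and did not all fall. TTK rose and AURKB did not pass with shRNA #1, and BUB1 passed with neither hairpin. PLK1, the Polo-like kinase of centrosomes, kinetochores and cytokinesis, had 4158, 4018 and 3966 normalized counts with NS shRNA and 2872, 2915 and 2944 with shRNA #1 (log2 fold change -0.48 ± 0.045 SE, limma adjusted p = 1.26e-05). Its values beside shRNA #2 were 4487, 4361 and 4277 with NS shRNA and 2197, 2075 and 2065 with shRNA #2 (log2 fold change -1.05 ± 0.055 SE, limma adjusted p = 1.19e-07). PLK1 was thus at 71.9% of the NS shRNA mean with shRNA #1 and at 48.3% with shRNA #2. AURKA, the Aurora kinase of spindle poles, was at 5538, 5638 and 5466 with NS shRNA and at 4990.3, 5057 and 5144 with shRNA #1 (log2 fold change -0.13 ± 0.042 SE, limma adjusted p = 0.0197). This small fall lost its call without NS shRNA replicate 2 (log2 fold change -0.120) and without shRNA #1 replicate 1 (-0.121) or 2 (-0.131). With shRNA #2, AURKA was at 4234, 4432 and 4390.3, against 5976, 6120.1 and 5893 with NS shRNA (log2 fold change -0.46 ± 0.051 SE, limma adjusted p = 1.73e-05). NEK2, a kinase that splits the centrosomes before mitosis, changed by -0.21 ± 0.055 with shRNA #1 and -0.74 ± 0.066 with shRNA #2 on the log2 scale, and PBK, a mitotic kinase, by -0.43 ± 0.048 with shRNA #1 and -0.28 ± 0.062 with shRNA #2.

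PLK4, the kinase that starts centriole duplication, was the exception in that group. It stood at 2042, 2154 and 2337 with NS shRNA and fell to 1564, 1571 and 1445 with shRNA #1 (log2 fold change -0.51 ± 0.065 SE, limma adjusted p = 9.00e-05). PLK4 in the shRNA #2 libraries was at 2283, 2483 and 2249, overlapping the NS shRNA values of 2203, 2338 and 2519.5 (log2 fold change -0.0088 ± 0.069 SE, limma adjusted p = 0.918). The direct comparison of the hairpins put PLK4 higher with shRNA #2 than with shRNA #1 (log2 ratio 0.49 ± 0.064 SE, edgeR adjusted p = 4.52e-05).

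The chromosomal passenger complex, which corrects faulty kinetochore attachments and directs cytokinesis, did not move as a unit. Its kinase AURKB stood at 2889, 2804 and 2609 with NS shRNA and 2698, 2737 and 2999 with shRNA #1, overlapping groups (log2 fold change 0.022 ± 0.061 SE, limma adjusted p = 0.76). With shRNA #2 AURKB fell to 2186, 2182 and 2193, from 3117, 3044 and 2813 with NS shRNA (log2 fold change -0.45 ± 0.059 SE, limma adjusted p = 6.28e-05). BIRC5, or survivin, the subunit that reads chromatin, fell with both hairpins. Its values were 4915, 4838 and 4253 with NS shRNA and 3259, 3191 and 3646 with shRNA #1 (log2 fold change -0.47 ± 0.072 SE, limma adjusted p = 0.000293). In the other table they were 5303, 5252 and 4586 with NS shRNA and 3667, 3551 and 4004 with shRNA #2 (log2 fold change -0.43 ± 0.072 SE, limma adjusted p = 0.00036). INCENP, the scaffold, fell to 61.1% of the NS shRNA mean with shRNA #1 and to 70.0% with shRNA #2. CDCA8, or borealin, rose with shRNA #1 (log2 fold change 0.38 ± 0.063) and had 0.088 ± 0.083 with shRNA #2, which did not pass.

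The 6 genes of the spindle checkpoint moved both ways. ZWINT, which links the outer kinetochore to the checkpoint's RZZ complex, fell with both hairpins, to 78.9% of the NS shRNA mean with shRNA #1 and 52.4% with shRNA #2. BUB1B, or BUBR1, a subunit of the inhibitor of the APC/C, changed by -0.25 ± 0.084 with shRNA #1 and -0.38 ± 0.089 with shRNA #2. In the GENCODE annotation 10.2% of its exon bases overlap another gene on its strand, so its counts may be less certain, which was not tested. Its call with shRNA #1 was lost without NS shRNA replicate 2 (log2 fold change -0.254) or 3 (-0.180) and without shRNA #1 replicate 1 (-0.244) or 3 (-0.203). BUB1, the kinase that marks centromeres, was at 5743, 5863 and 6112 with NS shRNA and 5845, 5823 and 5578 with shRNA #1, which overlapped (log2 fold change -0.039 ± 0.046 SE, limma adjusted p = 0.478). BUB1 stood at 5821, 6132 and 5629 with shRNA #2, each below the NS shRNA values of 6196, 6364 and 6590.0, but the difference did not pass (log2 fold change -0.12 ± 0.055 SE, limma adjusted p = 0.0676). It passed with upper quartile scaling (-0.169, limma adjusted p = 0.0197), in 1 fit of all 9 libraries (-0.124, 0.0367) and without shRNA #2 replicate 2 (-0.157, 0.0378). The other checkpoint genes, MAD2L1, BUB3 and TTK, were called in opposite directions by the hairpins and are described with that group.

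At the kinetochore, subunits of a single complex moved apart. The NDC80 complex grips microtubules through the arms NDC80 and NUF2 and joins the inner kinetochore through SPC24 and SPC25. SPC24 had the largest fall of all members with shRNA #1, from 370.5, 392 and 391 with NS shRNA to 241, 218 and 197 (log2 fold change -0.82 ± 0.094 SE, limma adjusted p = 4.82e-05). The second hairpin took SPC24 from 399.8, 425 and 421 to 183, 199 and 244 (log2 fold change -0.998 ± 0.12 SE, limma adjusted p = 2.58e-05). SPC25, its partner, went from 1319.7, 1211 and 1234 to 725, 753 and 773 with shRNA #1 (log2 fold change -0.74 ± 0.061 SE, limma adjusted p = 5.26e-06). For shRNA #2 the values went from 1424, 1315 and 1331 to 745, 735 and 933 (log2 fold change -0.76 ± 0.095 SE, limma adjusted p = 4.43e-05). Both were thus at 50.1% to 59.8% of the NS shRNA mean in either table. NUF2 changed by -0.20 ± 0.066 with shRNA #1 and -0.51 ± 0.069 with shRNA #2, and its call with shRNA #1 was lost without NS shRNA replicate 3 (-0.140) or shRNA #1 replicate 3 (-0.174). NDC80 itself rose with shRNA #1, from 2197, 2199 and 2203 to 3058, 3049.9 and 3265 (log2 fold change 0.51 ± 0.049 SE, limma adjusted p = 1.44e-05). The shRNA #1 libraries therefore held more NDC80 but less NUF2, SPC24 and SPC25 RNA than the NS shRNA libraries.

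Of the SKA complex, which follows the ends of shortening microtubules, SKA1 and SKA3 are among the members, and both rose with shRNA #1. SKA2 was counted with the other kinetochore genes, and its value is not given here. SKA3 had the largest rise of all members with that hairpin, from 1232, 1190.4 and 1345 with NS shRNA to 2045, 1990.4 and 1957 (log2 fold change 0.67 ± 0.060 SE, limma adjusted p = 8.90e-06). SKA3 stood at 1386, 1573 and 1341 with shRNA #2, overlapping 1329, 1292 and 1450.4 (log2 fold change 0.077 ± 0.079 SE, limma adjusted p = 0.407). CENPA, the histone that marks centromeres, fell with both hairpins, from 889, 767 and 843 with NS shRNA to 627, 627 and 677 with shRNA #1 (log2 fold change -0.37 ± 0.074 SE, limma adjusted p = 0.00163). A deeper fall came with shRNA #2, from 959, 833 and 909 to 391, 473 and 423 (log2 fold change -1.07 ± 0.092 SE, limma adjusted p = 3.13e-06), or 47.7% of the NS shRNA mean. Its chaperone HJURP changed by -0.38 ± 0.054 with shRNA #1 and -0.67 ± 0.065 with shRNA #2 on the log2 scale. CENPE, a kinetochore motor, had 0.039 ± 0.075 with shRNA #1, which did not pass, and fell by 0.38 ± 0.080 with shRNA #2, while CENPI, an inner kinetochore protein, fell by 0.28 ± 0.077 with shRNA #1 and had -0.098 ± 0.089 with shRNA #2, which did not pass. CENPF, a large protein of the outer kinetochore, passed in no comparison, and its level was 99.8% and 99.8% of the NS shRNA mean.

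**Figure D2:**
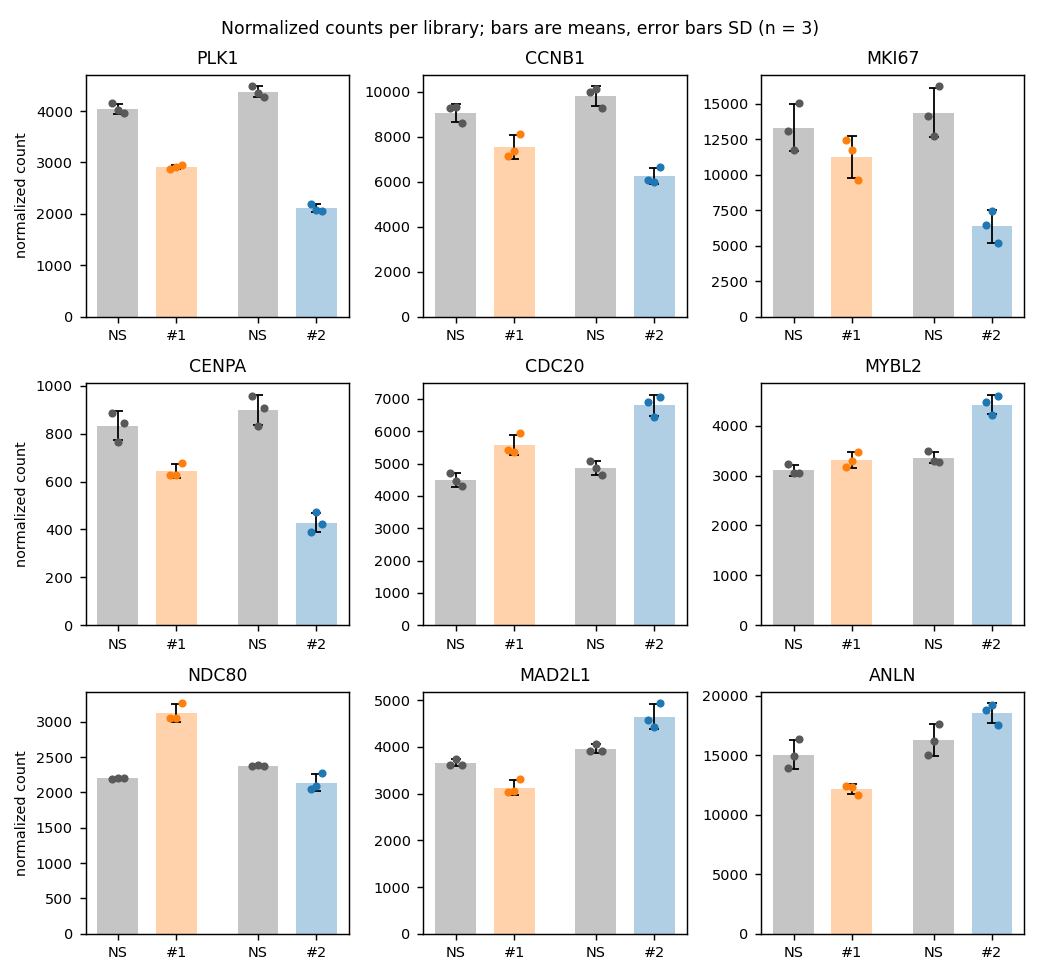
Normalized counts of 9 members in each library (points), with the mean (bar) and SD (error bar, n = 3) of NS shRNA and the hairpin of the same table (#1 left, #2 right). PLK1, CCNB1 and CENPA are lower with both hairpins and CDC20 higher with both, and NDC80, MAD2L1 and ANLN move in opposite directions.

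The genes of cohesion and anaphase moved both ways. CDC20, the activator of the APC/C on which the checkpoint acts, rose with both hairpins. It stood at 4712, 4467 and 4303 with NS shRNA and at 5429, 5359 and 5944 with shRNA #1 (log2 fold change 0.31 ± 0.057 SE, limma adjusted p = 0.000937). Beside shRNA #2 it stood at 5084, 4849 and 4639.9 with NS shRNA and at 6916, 6429 and 7062 (log2 fold change 0.49 ± 0.059 SE, limma adjusted p = 3.64e-05), the largest rise of any member with that hairpin. UBE2C, the ubiquitin-conjugating enzyme of the APC/C, rose from 5007, 4786 and 4797 to 6803, 6372 and 6806 with shRNA #1 (log2 fold change 0.45 ± 0.047 SE, limma adjusted p = 2.44e-05). UBE2C with shRNA #2 was at 5338, 5829 and 5797, overlapping the NS shRNA values of 5403, 5195 and 5172 (log2 fold change 0.10 ± 0.056 SE, limma adjusted p = 0.12). ESPL1, or separase, the protease that cuts cohesin, fell, changing by -0.36 ± 0.055 with shRNA #1 and -0.59 ± 0.067 with shRNA #2 on the log2 scale. PTTG1, or securin, its inhibitor, had -0.05 ± 0.098 and 0.023 ± 0.12, neither of which passed.

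The protectors of cohesion fell with at least 1 hairpin. The shugoshin SGO2 changed by -0.27 ± 0.053 with shRNA #1 and -0.50 ± 0.066 with shRNA #2 on the log2 scale, and SGO1 by -0.21 ± 0.056 with shRNA #1, whereas its -0.092 ± 0.079 with shRNA #2 did not pass. CDCA5, or sororin, which locks cohesin on replicated chromosomes, fell from 5902, 5571 and 5222 with NS shRNA to 3489, 3775 and 4133 with shRNA #1 (log2 fold change -0.55 ± 0.070 SE, limma adjusted p = 9.11e-05). Values with shRNA #2 were 5780.5, 5187 and 5966, overlapping 6368, 6048 and 5630.4 (log2 fold change -0.092 ± 0.069 SE, limma adjusted p = 0.256). The hairpins differed directly (log2 ratio 0.45 ± 0.075 SE, edgeR adjusted p = 0.000316).

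Of the genes of chromosome structure, the condensin I complex, which compacts mitotic chromosomes, was again split between its subunits. NCAPD2 fell from 6090.0, 6255 and 6553 with NS shRNA to 3882, 3779 and 3758 with shRNA #1 (log2 fold change -0.73 ± 0.046 SE, limma adjusted p = 1.10e-06). NCAPD2 fell with shRNA #2 from 6571, 6790.2 and 7066 to 3938, 3816 and 3606 (log2 fold change -0.85 ± 0.057 SE, limma adjusted p = 5.55e-07). The kleisin NCAPH changed by -0.50 ± 0.051 with shRNA #1 and -0.61 ± 0.060 with shRNA #2, which is a fall in both. SMC4, an ATPase subunit, rose with both hairpins, by 0.25 ± 0.051 and 0.23 ± 0.061. Its partner SMC2 was at 4849.8, 5004 and 5240.5 with NS shRNA and 4792, 4905 and 4598 with shRNA #1 (log2 fold change -0.078 ± 0.049 SE, limma adjusted p = 0.187). With shRNA #2 SMC2 rose to 6815, 7234 and 6346, above all of the NS shRNA values of 5233, 5432 and 5650.3 (log2 fold change 0.32 ± 0.062 SE, limma adjusted p = 0.000919).

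TOP2A, the topoisomerase that untangles sister chromatids, fell with each hairpin. It stood at 18009.5, 18847 and 19076 with NS shRNA and at 14429, 14623 and 14292 with shRNA #1 (log2 fold change -0.37 ± 0.042 SE, limma adjusted p = 4.38e-05). The values beside shRNA #2 were 19433, 20459 and 20567 with NS shRNA and 16045, 16031 and 15635 with the hairpin (log2 fold change -0.34 ± 0.048 SE, limma adjusted p = 0.00011). MKI67, the Ki-67 protein that coats mitotic chromosomes and marks proliferating cells, was the member that fell most with shRNA #2, from 14123, 12753 and 16236 to 6444, 7453 and 5169 (log2 fold change -1.19 ± 0.12 SE, limma adjusted p = 1.18e-05), or 43.95% of the NS shRNA mean. With shRNA #1 the groups overlapped, at 13088, 11748 and 15058 with NS shRNA and 12436, 11726 and 9621 with shRNA #1 (log2 fold change -0.24 ± 0.11 SE, limma adjusted p = 0.0722). Its SE was the largest of any member in that table, and the difference passed without NS shRNA replicate 2 (log2 fold change -0.327) and without shRNA #1 replicate 1 (-0.317).

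Of the spindle microtubule genes, SPAG5, or astrin, and TACC3, which stabilizes the fibers that hold kinetochores, fell with both hairpins. On the log2 scale SPAG5 changed by -0.69 ± 0.048 with shRNA #1 and -0.65 ± 0.053 with shRNA #2, and TACC3 by -0.55 ± 0.063 with shRNA #1 and -0.29 ± 0.062 with shRNA #2. NUSAP1, a microtubule bundler, changed by -0.35 ± 0.077 with shRNA #1 and -0.90 ± 0.10 with shRNA #2. In the GENCODE annotation 86.8% of its exon bases are shared with another gene on the same strand, so its counts may be uncertain. The reads were counted on UCSC genes, and the effect of the overlap was not tested. Shared bases also cover 57.6% of PRC1, 9.30% of SPAG5 and 7.10% of CENPA. DLGAP5, a spindle assembly factor, had -0.07 ± 0.046 with shRNA #1, which did not pass, and fell by 0.33 ± 0.056 with shRNA #2. CKAP2L passed with neither hairpin (0.18 ± 0.089 and -0.099 ± 0.098), although with shRNA #1 it passed without NS shRNA replicate 3 (0.266) and without shRNA #1 replicate 3 (0.257).

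Of the genes of the central spindle and cytokinesis, all 4 fell with shRNA #1 and 2 of them with shRNA #2. PRC1, which bundles the antiparallel microtubules of the central spindle, changed by -0.20 ± 0.045 with shRNA #1 and -0.29 ± 0.052 with shRNA #2. RACGAP1, a subunit of centralspindlin, changed by -0.29 ± 0.050 with shRNA #1 and -0.16 ± 0.050 with shRNA #2, and its call with shRNA #2 was lost without shRNA #2 replicate 1 (-0.157). ECT2, which activates RhoA at the furrow, fell by 0.25 ± 0.056 with shRNA #1 and had 0.024 ± 0.056 with shRNA #2, which did not pass. ANLN, or anillin, the scaffold of the contractile ring, was called lower with shRNA #1 and higher with shRNA #2.

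**Figure D3:**
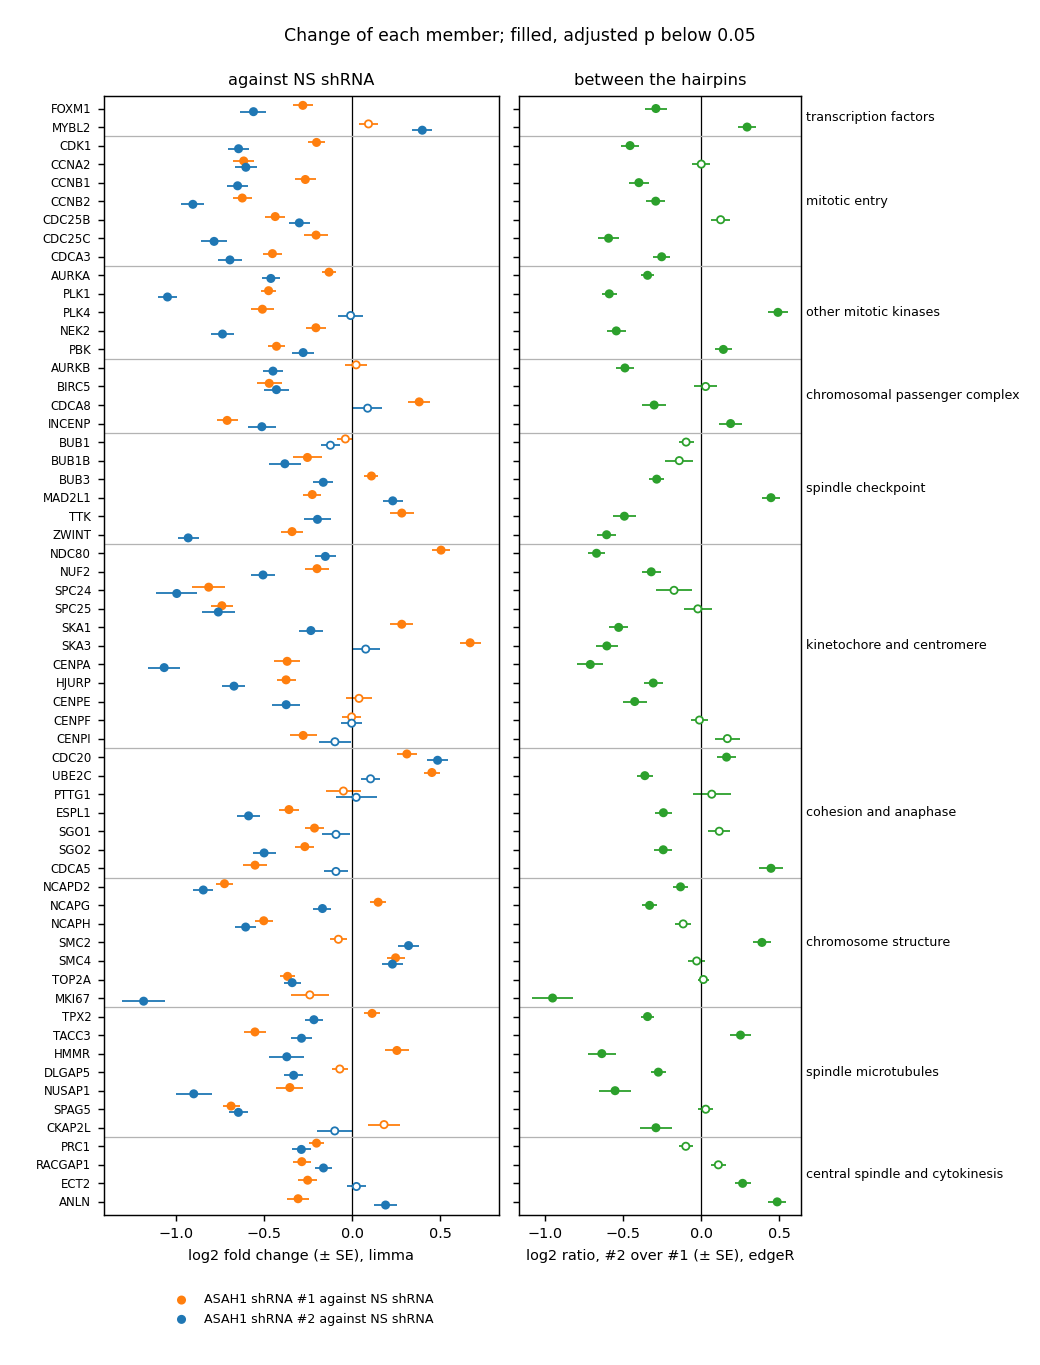
Log2 fold change of each member against NS shRNA with shRNA #1 (orange) and shRNA #2 (blue), left, and log2 ratio of shRNA #2 over shRNA #1, right, each with its SE; filled points passed an adjusted p of 0.05. The mitotic entry genes all lie left of 0 with both hairpins, and the right panel holds 32 filled points left of 0 and 11 right of it.

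The direct comparison of the hairpins, on the reads of all 9 libraries, showed lower mitosis genes with shRNA #2 than with shRNA #1, but not in every role. Of the 60 members, 32 were lower and 11 higher with shRNA #2 at an edgeR adjusted p below 0.05, and 17 did not pass. Over all genes tested, 32.6% were lower and 31.4% higher. At the added limit of 1.5-fold, 8 members (13.3%) were lower and 0 higher, against 16.1% and 11.1% of all genes. The share of members lower by this limit was thus below that of all genes. The median log2 ratio over the members was -0.242, and over all genes -0.005. The largest falls were in MKI67 (log2 ratio -0.95 ± 0.13 SE, edgeR adjusted p = 7.81e-05), CENPA (log2 ratio -0.71 ± 0.084 SE, edgeR adjusted p = 2.11e-05) and NDC80 (log2 ratio -0.67 ± 0.054 SE, edgeR adjusted p = 1.02e-06). PLK1 (log2 ratio -0.59 ± 0.047 SE, edgeR adjusted p = 8.85e-07) and CDK1 (log2 ratio -0.45 ± 0.056 SE, edgeR adjusted p = 2.77e-05) were also lower with shRNA #2. The largest rises were in PLK4, ANLN and CDCA5. For TOP2A, CCNA2, BIRC5, SPAG5 and SPC25 the log2 ratio lay between -0.021 (SPC25) and 0.029 (SPAG5) and did not pass. Of the 7 mitotic entry genes 5 were lower with shRNA #2, of the 11 kinetochore and centromere genes 7, and of the 4 cytokinesis genes 0, with 2 higher.

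The 9 members called in opposite directions against NS shRNA also passed the direct test of the hairpins. That test used the same libraries, and members picked by opposite calls all but have to pass it. MAD2L1, the checkpoint protein that binds and holds CDC20, was at 3616, 3748 and 3619 with NS shRNA and lower, at 3030.0, 3048 and 3312, with shRNA #1 (log2 fold change -0.23 ± 0.052 SE, limma adjusted p = 0.00343). With shRNA #2 it was higher, at 4573, 4434 and 4936 against 3902, 4068 and 3902 (log2 fold change 0.23 ± 0.058 SE, limma adjusted p = 0.00493), and no groups overlapped. HMMR, a hyaluronan receptor that also binds spindle poles, did the reverse, rising from 526, 488 and 499 to 631, 574 and 601 with shRNA #1 (log2 fold change 0.25 ± 0.070 SE, limma adjusted p = 0.00966). With shRNA #2 it fell from 568, 529 and 538 to 446, 458 and 365 (log2 fold change -0.37 ± 0.10 SE, limma adjusted p = 0.00709). These 2 members kept both calls under every alternative setting, and each of the other 7 lost at least 1 of its calls under some setting.

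TTK, the checkpoint kinase also called MPS1, rose from 2037, 2214 and 2299 to 2787, 2728 and 2452 with shRNA #1 (log2 fold change 0.28 ± 0.067 SE, limma adjusted p = 0.00447). TTK with shRNA #2 was at 2086, 2215 and 1879, against 2198, 2403 and 2479, groups that overlapped although the fit called a fall (log2 fold change -0.20 ± 0.076 SE, limma adjusted p = 0.0395). That call was lost without NS shRNA replicate 2 (-0.183) or 3 (-0.161) and without shRNA #2 replicate 1 (-0.208) or 3 (-0.133). SKA1 rose from 647, 677 and 684 to 865, 799 and 779 with shRNA #1 (log2 fold change 0.28 ± 0.066 SE, limma adjusted p = 0.00409). It fell with shRNA #2 from 698, 735 and 738 to 601, 614 and 629 (log2 fold change -0.23 ± 0.070 SE, limma adjusted p = 0.0128), so its libraries lay on opposite sides of NS shRNA. NDC80, which rose with shRNA #1, was at 2048, 2097 and 2279 with shRNA #2, just below 2370.4, 2387 and 2375 with NS shRNA (log2 fold change -0.15 ± 0.060 SE, limma adjusted p = 0.045). This fall was lost when any library but shRNA #2 replicate 3 was left out (log2 fold change -0.121 to -0.155).

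BUB3, the subunit that carries BUB1 and BUBR1 to kinetochores, moved little: from 7904, 7927 and 7933 to 8476, 8651 and 8510.4 with shRNA #1 (log2 fold change 0.11 ± 0.040 SE, limma adjusted p = 0.0333). With shRNA #2 it went from 8528, 8604 and 8553 to 7537, 7255 and 8154 (log2 fold change -0.16 ± 0.056 SE, limma adjusted p = 0.0233). Its rise was lost when any single library was left out (0.101 to 0.115), and its fall without NS shRNA replicate 2 (-0.161) or shRNA #2 replicate 1 (-0.155) or 2 (-0.127). NCAPG, a condensin I subunit, went from 4335, 4468 and 4561 to 4751, 4958 and 5098 with shRNA #1 (log2 fold change 0.15 ± 0.047 SE, limma adjusted p = 0.0199). Beside shRNA #2 the values went from 4678, 4850.3 and 4918 to 4351, 4249 and 4246 (log2 fold change -0.17 ± 0.051 SE, limma adjusted p = 0.0131). The rise was lost without NS shRNA replicate 1 (0.128) or 2 (0.150) and without shRNA #1 replicate 2 (0.144) or 3 (0.124), and the fall without NS shRNA replicate 2 (-0.164).

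TPX2, which activates AURKA on spindle microtubules, went from 12503, 13194 and 13589 to 14278, 14236 and 13954 with shRNA #1 (log2 fold change 0.11 ± 0.045 SE, limma adjusted p = 0.049). TPX2 fell with shRNA #2 from 13492, 14322 and 14651 to 12236, 12097 and 12164 (log2 fold change -0.22 ± 0.051 SE, limma adjusted p = 0.00305). The rise was lost without NS shRNA replicate 1 (0.0802) or 2 (0.119) and without any 1 of the shRNA #1 libraries (0.107 to 0.123). ANLN fell from 13907, 14893 and 16354 to 12418, 12326 and 11671 with shRNA #1 (log2 fold change -0.31 ± 0.061 SE, limma adjusted p = 0.00161). With shRNA #2 it was at 18836, 19179 and 17570.4 against 15006, 16167 and 17633, overlapping groups with a called rise (log2 fold change 0.19 ± 0.066 SE, limma adjusted p = 0.0258). That rise was lost without NS shRNA replicate 1 (0.133) or 2 (0.187) and without shRNA #2 replicate 1 (0.177) or 2 (0.164).

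The levels of the members themselves spanned a wide range. In RPM per kilobase of exon, the median level over the members with NS shRNA was 27.7, the highest were UBE2C at 117.0, CCNB1 at 115.3, TPX2 at 112.4 and TOP2A at 90.5, and the lowest were CENPI at 3.82, HMMR at 3.97 and SPC24 at 4.19. On the same scale MKI67 stood at 32.1 and PLK1 at 26.3 with NS shRNA, so the members with the largest falls came from both the low and the middle of this range.

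Other cell cycle gene lists were counted in the same way and were not tested against the members. Of 34 DNA replication genes, 29 (85.3%) were lower and 2 (5.88%) higher with shRNA #1, against 33.3% and 32.8% of all genes, with a median log2 fold change of -0.433. With shRNA #2, 12 (35.3%) were lower and 9 (26.5%) higher, shares near the 33.4% and 33.5% of all genes, with a median of -0.024. In the direct comparison 27 of the 34 (79.4%) were higher with shRNA #2 than with shRNA #1 and 2 (5.88%) lower (median log2 ratio 0.396), while of the 60 mitosis genes 11 (18.3%) were higher and 32 (53.3%) lower, against 31.4% and 32.6% of all genes. MCM5, a subunit of the replicative helicase, fell with shRNA #1 (log2 fold change -1.20 ± 0.046 SE, limma adjusted p = 5.82e-08) and with shRNA #2 (log2 fold change -0.83 ± 0.058 SE, limma adjusted p = 7.23e-07). The 12 mitotic kinesins, motors that build and move the spindle, gave 7 lower (58.3%) and 2 higher (16.7%) with shRNA #1 and 11 lower (91.7%) and 0 higher with shRNA #2 (medians -0.162 and -0.547).

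**Figure D4:**
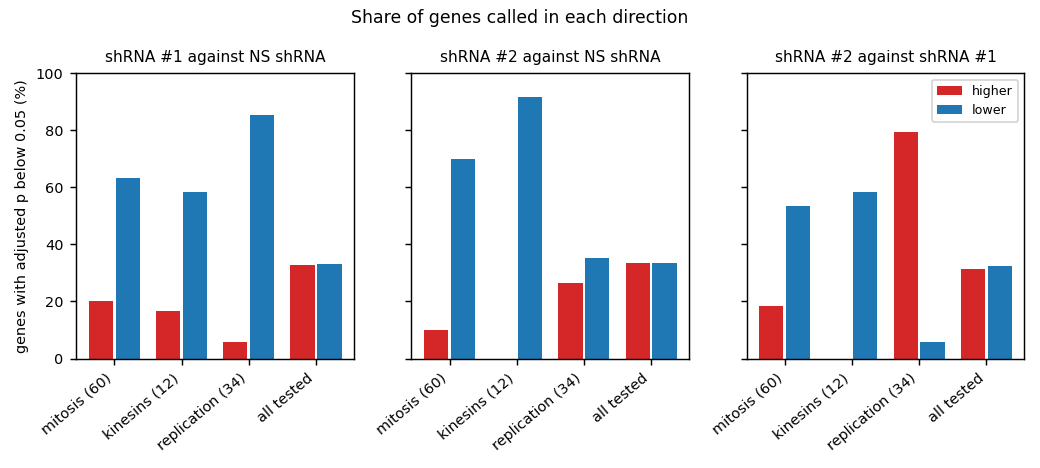
Share of genes called higher (red) and lower (blue), in percent, among the 60 mitosis genes, 12 mitotic kinesins, 34 DNA replication genes and all genes tested, for each comparison. With shRNA #2 against shRNA #1, the mitosis genes and kinesins are mostly lower and the replication genes mostly higher.

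The counts for the regulators and partners of the members are small and are to be read against the same shares of all genes, 33.3% lower and 32.8% higher with shRNA #1 and 33.4% and 33.5% with shRNA #2. Of 17 APC/C genes, 5 were lower (29.4%) and 1 higher (5.88%) with shRNA #1, and 8 lower (47.1%) and 4 higher (23.5%) with shRNA #2. Of 19 other kinetochore genes 5 were lower and 5 higher (26.3% each) with shRNA #1 and 9 lower (47.4%) and 4 higher (21.1%) with shRNA #2. Of 7 other checkpoint genes 1 was lower (14.3%) and 3 higher (42.9%) with shRNA #1 and 2 lower (28.6%) and 4 higher (57.1%) with shRNA #2. Of 12 further regulators of mitotic entry 6 were lower (50%) and 4 higher (33.3%) with shRNA #1 and 5 lower and 5 higher (41.7% each) with shRNA #2. The 14 genes of cohesin and condensin II went from 8 lower (57.1%) and 3 higher (21.4%) with shRNA #1 to 2 lower (14.3%) and 8 higher (57.1%) with shRNA #2, and 10 of them (71.4%, against 31.4% of all genes) were higher with shRNA #2 in the direct comparison. Of 13 genes of the DREAM and MMB complexes and related E2Fs 6 were lower (46.2%) and 3 higher (23.1%) with shRNA #1 and 4 lower (30.8%) and 6 higher (46.2%) with shRNA #2. In this last list the transcriptional repressor E2F7 rose to 249.5% of the NS shRNA mean with shRNA #1 (log2 fold change 1.32 ± 0.068 SE, limma adjusted p = 2.91e-07) and to 185% with shRNA #2 (log2 fold change 0.89 ± 0.071 SE, limma adjusted p = 1.88e-06). E2F5, a DREAM-associated factor, rose to 218% with shRNA #1 (log2 fold change 1.13 ± 0.050 SE, limma adjusted p = 1.28e-07) and to 189% with shRNA #2 (log2 fold change 0.92 ± 0.060 SE, limma adjusted p = 4.48e-07).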

How the data were processed

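RNA from 9 libraries of MDA-MB-231 cells was sequenced by the authors. Their notes and methods name Trimmomatic 0.36 for trimming, STAR 2.7.1a with hg38 for alignment, htseq-count on the reverse strand of UCSC genes for counting, and DESeq2 1.28, run once per hairpin; RSEM and edgeR are named in a separate place. The labels give both oligo-dT selection and ribosomal RNA depletion. Each deposited table holds 1 signal per gene and library, which is the read count over that library's size factor, and its mean. The authors' own log2 fold change, Wald score, p-value and adjusted p-value also stand in the deposited tables and were not used here. Reads were recovered from the deposited signal as whole numbers within a tolerance of 0.05. A total of 28 gene symbols turned into dates in one table were taken from the other.

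Each hairpin was compared with NS shRNA within its table by two-sided limma 3.58.1 tests (trend on mean intensity) of log2(value + 1). Genes needed a mean of 10 or more (14341 for shRNA #1, 14250 for shRNA #2), with Benjamini-Hochberg adjustment over all of them. Fold changes are on that scale. Percentages of the NS shRNA mean are these fold changes turned back from it, so they compare geometric means. The hairpins were compared by edgeR 4.0.16 (quasi-likelihood, TMM) on the reads of all 9 libraries over 14360 genes. The SE of an edgeR log2 ratio is the size of the ratio over the square root of its F statistic. An exact permutation test of 3 libraries against 3 cannot go below p = 0.1, so none is given for single genes. DESeq2 1.42.0 and R 4.3.3, with Python 3.11.15, were used for the alternatives and plots. Alternatives were pseudocounts of 0.1 and 5, no filter or a mean of 50, no trend, other scalings, edgeR, DESeq2, 1 fit of all libraries, a replicate block and leaving out each library. On simulated data with 200 changed genes the fits were tested before use. Far more genes were called in the real data, so the simulation does not give the error rate of these calls. Gene lengths and exon overlaps are from GENCODE (hg38). The members and lists were chosen with earlier results of these data known. Values per library are given for 13 core members, for the 3 members with the largest rise and fall in each comparison, and for those called in opposite directions; genes of the other lists are named when both hairpins moved them the same way by a mean log2 fold change past 1 in size.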

Additional observations from a re-analysis of the deposited data

Results flagged for a closer look

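For 9 members the hairpins were called in opposite directions against NS shRNA. The edgeR test of shRNA #2 against shRNA #1 passed for each. It used the same libraries, and members picked by opposite calls all but have to pass it, so it adds no separate support. The log2 ratio was negative, so lower with shRNA #2, for BUB3 (-0.2843), TTK (-0.4909), NDC80 (-0.6689), SKA1 (-0.5274), NCAPG (-0.3299), TPX2 (-0.343) and HMMR (-0.6352). It was positive for MAD2L1 (0.446) and ANLN (0.4858). In every one of the 9 the libraries of the hairpins did not overlap, which the way they were picked makes likely. The share of all genes without overlap was not counted. Opposite calls were found for 15.0% of the members and 7.96% of all genes tested in both tables, without matching for level. The cause was not tested.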

How the results depend on the processing

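Of the members called, 43 of 50 with shRNA #1, 41 of 48 with shRNA #2 and 38 of 43 between the hairpins kept their call under every alternative. Of the members not called, 8 of 10, 11 of 12 and 10 of 17 stayed so under every alternative, and 4, 7 and 2 also kept their direction. The calls gained with shRNA #1 were MKI67 (DESeq2, -0.236; without NS shRNA replicate 2, -0.327, or shRNA #1 replicate 1, -0.317) and CKAP2L (without NS shRNA replicate 3, 0.266, or shRNA #1 replicate 3, 0.257), and with shRNA #2 BUB1, as given above. Between the hairpins 7 were gained: BUB1 (-0.173), NCAPH (-0.191) and PRC1 (-0.174) with upper quartile scaling, NCAPH (-0.129) and PRC1 (-0.112) with a mean of at least 50, RACGAP1 with DESeq2 (0.114) and 1 limma fit of 9 libraries (0.123), BUB1 (-0.131), CDC25B (0.167) and NCAPH (-0.145) without shRNA #2 replicate 2, CDC25B without shRNA #1 replicate 3 (0.178), and CENPI (0.223) and SPC24 (-0.306) without shRNA #2 replicate 3. Upper quartile scaling moved the median over members to -0.382 with shRNA #2 and -0.318 between the hairpins, where the medians of all genes moved to -0.033 and -0.081. The 8 members lower past 1.5-fold between the hairpins became 5 without shRNA #2 replicate 3 (range 5 to 8 over left-out libraries). The values that changed sign all belong to members that did not pass in that comparison, and these changes are small. Under upper quartile scaling they were CENPF with shRNA #1 (0.00656), ECT2 (-0.0212) and PTTG1 (-0.0221) with shRNA #2, and BIRC5 (-0.0478), CCNA2 (-0.0756), PTTG1 (-0.00855), SPAG5 (-0.0471) and TOP2A (-0.0621) between the hairpins. Other settings turned CENPF with shRNA #1 (DESeq2, 0.000643), CENPF between the hairpins (no filter, 0.000216) and CCNA2 between the hairpins (mean of at least 50, -0.0133; replicate block, -1.13e-06). With 1 library left out, the ranges that crossed 0 with shRNA #1 were those of CENPE (-0.02 to 0.113), PTTG1 (-0.15 to 0.0374), AURKB (-0.0248 to 0.0541) and CENPF (-0.0363 to 0.0349). With shRNA #2 they were ECT2 (-0.0231 to 0.0543), CENPF (-0.0349 to 0.0468), PLK4 (-0.0553 to 0.0414) and PTTG1 (-0.0925 to 0.127). Between the hairpins they were SMC4 (-0.0845 to 0.00866), BIRC5 (-0.0219 to 0.0936), CENPF (-0.0443 to 0.0389), CCNA2 (-0.0324 to 0.0226), SPC25 (-0.144 to 0.0406) and PTTG1 (-0.0556 to 0.165). Between the hairpins, leaving out libraries or other settings ended the calls of CDC20 (0.0858 to 0.162), CKAP2L (-0.202 to -0.283), INCENP (0.112 to 0.208), NCAPD2 (-0.0958 to -0.139) and PBK (0.0656 to 0.157). The causes were not tested.

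With the replicate number as a block, 43 members were called with shRNA #1 (50 without), 41 with shRNA #2 (48 without) and 39 between the hairpins (43 without). The numbers did not pair the NS shRNA libraries with those of either hairpin. The deviations of same-numbered libraries correlated at -0.268 to -0.131 for NS shRNA and shRNA #1. For NS shRNA and shRNA #2 the range was -0.316 to -0.0982, and for the 2 hairpins it was 0.0533 to 0.201. Between the hairpins every library correlated best with its own number, a hint from the data and not from the design. At these depths every member had enough reads to be tested.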
